A study of Mus musculus with 20 samples.

Results

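Pigment genes were followed in single cells of growing mouse skin with and without Fgf5. The set holds 10 genes of 31055 features in the deposited gene table: the regulator Mitf and the receptor gene Mc1r, the enzyme genes Tyr, Tyrp1 and Dct, the melanosome genes Pmel and Mlana, and the transporter and channel genes Slc24a5, Slc45a2 and Trpm1. All 10 were chosen by name and were found in both count matrices. They were read in melanocytes, taken as cells in which Pmel, Dct, Tyrp1 and Mlana together reached at least 30 of every 10000 UMIs (unique molecular identifiers, 1 per captured transcript), and in all other cells. By that rule 1523 of 13790 Control cells and 1667 of 11002 Mutant cells were melanocytes.

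Cells came from the dorsal skin epidermis of mice in anagen, when hair is growing, and were captured with 10x Genomics 3′ v3 chemistry. The Control group was Nfatc1-CreER;R26R;mTmG, with 4 listed samples, and the Mutant group was Nfatc1-CreER;R26R;mTmG;Fgf5-/-, with 16. Both groups therefore carried the same tamoxifen-inducible Cre, driven from Nfatc1, a gene of hair follicle bulge stem cells and not a melanocyte driver, and the same reporters. Control mice received tamoxifen for 3 days from postnatal day 21 or 22 and Mutant mice for 3 days from day 23 or 24, so genotype and the start of treatment cannot be told apart. The labels give neither the age at harvest nor the Fgf5 allele. Each group was deposited as 1 pooled matrix with no link from cells to samples, so each group counted as 1 sample, no test between groups was possible and no p-value was computed. Intervals are exact 95% intervals and cover counting error only. The question addressed is how pigment gene expression differs in anagen skin that lacks FGF5, a secreted factor known to promote the end of hair growth.

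Follicle melanocytes make melanin in melanosomes, which are lysosome-related organelles, and pass them to the keratinocytes of the hair shaft during anagen. The receptor MC1R raises cyclic AMP when bound by melanocortin, which favours dark eumelanin and can induce Mitf, and MITF is a transcription factor that binds E-box letters in the promoters of many pigment genes. Tyrosinase starts melanin synthesis from tyrosine, the proteins of Dct and Tyrp1 act on later intermediates, PMEL forms the fibrils on which melanin is laid down, and ion transporters set the melanosome's internal conditions.

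Promoter stretches upstream of the start that hold the letters MITF is known to bind are shown for the 6 members in which they were found. RefSeq promoter windows (GRCm38.p6), from 250 bases before to 50 bases after a transcription start, were matched for 7 of the 10 members. Pmel, Mlana and Slc45a2 had no entry, and Mitf had 3 windows without a match. Capitals mark CATGTG or its reverse complement CACATG, the longer AGTCATGTG that contains CATGTG, or the palindrome CACGTG. All were searched on both strands.
Mc1r, chr8:123406993-123407052, plus strand: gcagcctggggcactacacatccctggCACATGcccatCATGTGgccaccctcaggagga
Tyr, chr7:87493513-87493563, minus strand: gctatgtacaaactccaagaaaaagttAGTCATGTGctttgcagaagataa
Tyrp1, chr4:80834137-80834196, plus strand: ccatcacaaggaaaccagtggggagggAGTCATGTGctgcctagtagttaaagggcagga
Dct, chr14:118052370-118052496, minus strand: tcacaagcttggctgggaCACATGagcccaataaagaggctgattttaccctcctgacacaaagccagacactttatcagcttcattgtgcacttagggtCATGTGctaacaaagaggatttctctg
Slc24a5, chr2:125068087-125068126, plus strand: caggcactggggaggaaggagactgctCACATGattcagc
Trpm1, first window, chr7:64153667-64153726, plus strand: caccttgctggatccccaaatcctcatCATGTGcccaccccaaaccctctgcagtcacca
Trpm1, second window, chr7:64185209-64185268, plus strand: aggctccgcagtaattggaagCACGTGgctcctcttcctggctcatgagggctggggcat

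CATGTG was found in 6 of the 7 members, against 15.9% of 27025 genes with windows of the same length. AGTCATGTG was found in Tyr, where it starts 24 bases upstream, and in Tyrp1, where it starts 49 bases upstream, against 0.326% of genes. CACGTG was found in Trpm1 and in 8.09% of genes. Mc1r and Dct each held CATGTG at 2 positions, and Trpm1 held it once in each of its windows, at 37 bases after the start in the second, which is not shown. A match describes the letters and is neither a binding site nor a cause.

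The cells that passed the rule carried the other markers of the lineage. The 10 melanocyte markers that are no members summed to 20105 CPM (UMIs of the genes for every 1000000 UMIs of the cells) in Control melanocytes and 123 CPM in all other Control cells. In the Mutant library they summed to 21694 and 230 CPM, and none was at 0 in either library. Most of the sum in melanocytes was Ptgds, with 16936 CPM in Control and 17710 CPM in Mutant. The receptor gene Kit had 205 and 219 CPM there, and the transcription factor gene Pax3 had 193 and 238 CPM. Sox10, which marks the neural crest lineage, had 107 and 164 CPM.

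The rule cuts a continuous score. Its summed level had a median of 418 of every 10000 UMIs in Control melanocytes and 501 in Mutant melanocytes. Cells just below the cutoff, from 20 to 30, numbered 103 and 154, and cells just above it, from 30 to 40, numbered 41 and 75. The score showed no gap at the cutoff. The highest value outside was 29.97 in Control and 29.67 in Mutant, and the lowest inside was 30.43 and 30.01. At the far end, 5118 Control cells and 1846 Mutant cells had no UMI of the 4 genes.

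**Figure D1:**
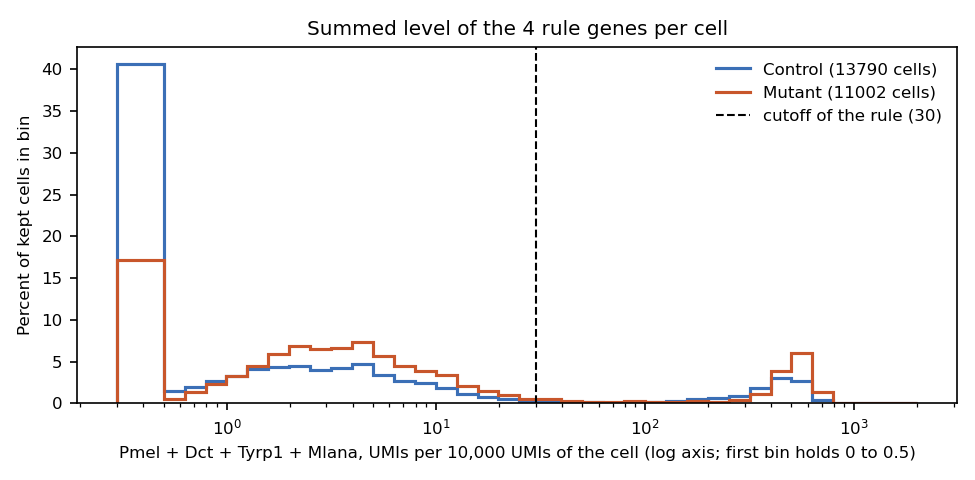
Percent of kept cells of a library in each bin (y axis) by the summed level of Pmel, Dct, Tyrp1 and Mlana per 10000 UMIs (x axis, log scale), for the Control and Mutant libraries, with the cutoff of 30 as a dashed line and the first bin holding 0 to 0.5. Melanocytes form the peak to the right of the line, with medians of 418 and 501, and 103 Control and 154 Mutant cells lie between 20 and 30.

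Melanocytes were 11.04% of kept Control cells (10.5 to 11.6) and 15.2% of kept Mutant cells (14.5 to 15.8). They were deeply sequenced, with medians of 13507 and 12370 UMIs per cell against 5268 and 5433 in the other cells. Median mitochondrial content was 4.93% in Control and 7.85% in Mutant melanocytes, and 3.06% and 4.64% in the other cells. Its part in the results below was not tested beyond 2 alternatives. Leaving mitochondrial UMIs out of the total moved the median log2 ratio of all compared genes by 0.045, and member ratios shift by the same amount. Lowering the limit per cell from 15% to 10% together with a higher gene minimum gave -1.39 for Mitf and -1.49 for Mc1r as log2 ratios. The doublet caller marked 2.59% and 3.95% of cells, below the 11.3% and 9.16% that the loading would give, so doublets remain possible. Both libraries shared 59 barcode sequences, and 1 of them was a melanocyte in both.

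Melanocytes devoted a large part of their transcripts to these 10 genes, 5.25% of all UMIs in Control and 5.98% in Mutant. Of all UMIs of the members, 98.3% and 98.1% lay in melanocytes. The 4 genes of the rule had the most UMIs of the members there, so these shares are largely set by the rule. A 3′ UMI marks the end of 1 transcript whatever its length, so levels of different genes were set side by side without division by length. Dct was the 4th most abundant gene of Control melanocytes and the most abundant of Mutant melanocytes (rank 1), Pmel moved from rank 3 to 5 and Mlana from rank 2 to 8.

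Mitf and Mc1r, the upstream pair, fell in Mutant melanocytes, while none of the 8 genes that make or equip the melanosome passed the same size rule. A ratio was called a change where it was at least 2-fold, its nearer bound lay beyond 1.5-fold and the higher library had at least 100 CPM. By this rule 2 of the 10 members were lower in Mutant and 0 were higher, while among all 1641 compared genes 2.13% were lower and 1.28% were higher. The members' median log2 ratio was -0.19, and that of all compared genes was -0.07. Counting intervals lay above 0 for 4 members and below 0 for 6, beside 35.7% and 51.2% of all 1641 compared genes. The 4 were Tyrp1, Dct, Pmel and Trpm1.

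Mitf (ENSMUSG00000035158, chromosome 6, 97807052 to 98021349, plus strand), the regulator of the lineage, had 5322 UMIs or 267 CPM (260 to 275) in Control and 1976 UMIs or 99.6 CPM (95.2 to 104) in Mutant melanocytes. The log2 ratio was -1.42 (-1.5 to -1.35), the 14th lowest of the 1641 genes. Fewer single cells held the transcript as well. With every cell thinned to 1500 UMIs, a Mitf UMI was found in 27.8% of 1326 Control and 11.3% of 1492 Mutant melanocytes, and without thinning in 66.1% and 42.1%. These 3′ tags do not tell the gene's promoters or isoforms apart.

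Mc1r (ENSMUSG00000074037, chromosome 8, 123407107 to 123410744, plus strand), the melanocortin receptor gene, had 6347 UMIs or 319 CPM in Control and 2264 UMIs or 114 CPM in Mutant melanocytes. Its log2 ratio was -1.48 (-1.55 to -1.41), the 11th lowest. The share of thinned cells with a UMI was 34.5% and 14.2%, and without thinning 76.4% and 54.6%. The annotation places a readthrough gene, Gm20388, over Mc1r on the same strand, so its counting is uncertain, although Gm20388 itself had 0 UMIs in the melanocytes of both libraries.

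The enzyme genes moved apart from one another and stayed under the size rule. Dct (chromosome 14, 118012790 to 118052244, minus strand), whose enzyme converts dopachrome, had 11446 CPM in Control and 18024 CPM in Mutant, a log2 ratio of 0.66 (0.65 to 0.66). Choosing the cells without Dct gave 11565 and 18249 CPM and the same 0.66. Tyrp1 (chromosome 4, 80834123 to 80851719, plus strand), which acts late in eumelanin synthesis, had 5142 and 6665 CPM (0.37), and 0.38 where the cells were chosen without it. Tyr (chromosome 7, 87424771 to 87493512, minus strand), the rate-limiting tyrosinase, had 1505 and 1339 CPM (-0.17, -0.19 to -0.14). Dct thus had the largest ratio of the 8 genes. Tyr lay below 0 here and at 0 within its interval under TMM scaling (-0.01, -0.03 to 0.02). Each of the 3 enzymes, as listed above, carries CATGTG in its promoter window, as does Mc1r.

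The melanosome genes of the rule also differed in sign. Pmel (chromosome 10, 128704195 to 128720238, plus strand), the fibril protein, had 12144 and 13683 CPM (0.17), and 0.17 where it was left out of the rule. Mlana (chromosome 19, 29697824 to 29708634, plus strand), a melanosome protein involved in PMEL processing, had 13358 and 11463 CPM (-0.22), and -0.22 where it was left out. Pmel lies across Cdk2 and Dgka on the other strand. The strand setting of the counting is not given in the sources used here.

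Among the transport genes the solute carriers were lower in value and the channel was higher, again under the size rule. Slc24a5 (chromosome 2, 125068124 to 125088677, plus strand), a cation exchanger needed for normal pigment, had 3477 and 2833 CPM (-0.30, -0.31 to -0.28). Slc45a2 (chromosome 15, 11000721 to 11029233, plus strand), a melanosome transporter, had 1134 and 776 CPM (-0.55, -0.58 to -0.52). Trpm1 (chromosome 7, 64153835 to 64269775, plus strand), a cation channel gene that holds the microRNA gene Mir211 in an intron, had 3736 and 4833 CPM (0.37). Slc45a2 had the lowest ratio after Mc1r and Mitf.

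**Figure D2:**
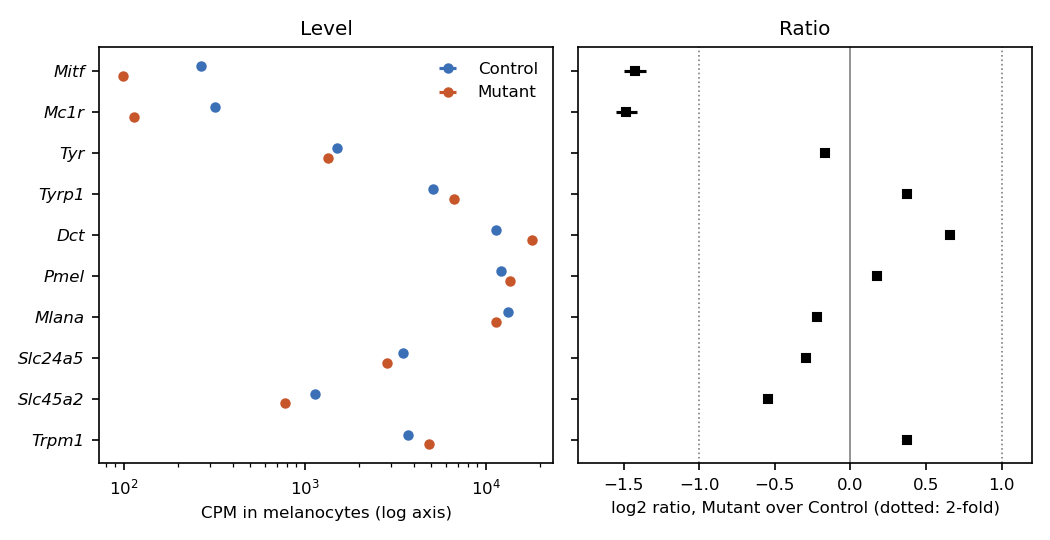
Left, level of each member in melanocytes in CPM (x axis, log scale) in the Control and Mutant libraries; right, log2 ratio of Mutant over Control with exact 95% intervals, which cover counting error only, and dotted lines at the 2-fold limits. Mitf at -1.42 and Mc1r at -1.48 lie beyond the lower limit, and the other 8 members lie between -0.55 and 0.66.

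Wider pigment lists were read beside the shares of all compared genes given above, 2.13% lower and 1.28% higher. Of 34 genes of melanosome build-up and transport, 13 were expressed highly enough to compare, and 0 were called in either direction (median log2 ratio 0.07). At a level minimum of 50 CPM 22 were compared and 1, Rab32, was lower. Rab38, which carries enzymes to the melanosome, had 1308 and 720 CPM (-0.86). Gpnmb, a relative of Pmel, had 1256 and 1831 CPM (0.54), and the vesicle protein gene Cd63 had 8127 and 6333 CPM (-0.36). Slc3a2, a partner chain of amino acid carriers, had 1609 and 1485 CPM.

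Of 20 lineage regulators, 9 were compared, 1 fell and 0 rose (median 0.12). The gene that fell was Tfeb, a lysosome regulator of the same protein family as MITF, at 176 and 87.7 CPM (-1.0, -1.09 to -0.92). It lay at the 2-fold limit, and 11 of 22 alternatives ended its call, with -0.84 under TMM scaling. Pax3, which can activate Mitf, had 193 and 238 CPM (0.30). The endothelin receptor gene Ednrb had 1433 and 1336 CPM, and the growth factor receptor gene Met had 199 and 255 CPM.

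Of 26 genes of MC1R and cyclic AMP signalling, 4 were compared, and 1 rose (median 0.20). Ppargc1a, a transcriptional coactivator that cyclic AMP is known to induce, rose from 398 to 865 CPM (1.12, 1.08 to 1.16). Some other genes of the list that cyclic AMP is known to induce lay under the level minimum and had lower values in Mutant. Nr4a3 had 50.4 and 17.4 CPM (-1.53) and Nr4a1 60.5 and 28.6 CPM (-1.08). Crem had 56.7 and 26.96 CPM (-1.07) and Nr4a2 15.9 and 10.2 CPM (-0.63). The Nr4a genes and Crem were singled out after their values were seen. Genes of the list under the minimum did not all go down. Sik1 had 29.98 and 46.8 CPM (0.64, 0.49 to 0.79) and Pde4b had 6.53 and 8.77 CPM (0.43). Nr4a1 and Nr4a3 are also leading genes of melanocyte sub-cluster 2, described below, which held 352 Control and 23 Mutant cells. Nr4a1 had 106 and 199 CPM within it, and 19.0 and 8.49 CPM in sub-cluster 4. The part of the mix of cells in these lower values was not tested. At a minimum of 50 CPM 9 genes of the list were compared, 1 rose and 3 fell (Nr4a3, Nr4a1 and Crem), beside 1.21% higher and 2.71% lower of all genes. Gnas, which encodes the G protein subunit that couples MC1R to cyclic AMP synthesis, had 1659 and 1669 CPM (0.01, -0.01 to 0.03). Prkar1a, a protein kinase A subunit gene, had 308 and 278 CPM, and Crtc3, a coactivator gene, had 78.1 and 102 CPM (0.39). Of 19 further textbook MITF targets, 11 were compared (median -0.10), and the single call was Ppargc1a, which is on both lists. Gpr143, a melanosome receptor gene among them, had 608 and 430 CPM (-0.50). The lists were read by count and median only.

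Melanocytes were clustered again without the 10 members to see how the members vary on genes that did not use them. The sub-clusters split by library. Sub-cluster 0, led by Tmod1 and Neat1, held 895 Mutant and 15 Control cells. Sub-cluster 2, led by Gadd45g, Socs3, Id3 and Nr4a1, which are quickly induced genes, held 352 Control and 23 Mutant cells. Sub-cluster 3, led by Wnt2 and Ftl1-ps1, held 354 Control and 11 Mutant cells. Sub-cluster 4, led by Apod and Lmo2, and sub-cluster 5, led by the division genes Ube2c, Birc5 and Top2a, held similar numbers of both, 195 and 150 cells in the first and 96 and 101 in the second.

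Mitf varied more than 3-fold within the Control library alone. It stood at 394 CPM in sub-cluster 2 and 125 CPM in sub-cluster 3, a log2 ratio of 1.65 (1.52 to 1.78), a contrast picked after its values were seen. Between the same cells Mc1r had 379 and 235 CPM (0.69) and Slc45a2 1292 and 918 CPM (0.49). The other 7 members were level or slightly lower where Mitf was high, from -0.09 for Tyr to -0.32 for Dct. Gadd45g had 439 CPM in sub-cluster 2 and 25.7 CPM in sub-cluster 3, and Id3 had 956 and 142 CPM. Control sub-cluster 3 thus combined low Mitf with enzyme gene levels above the library's own values of 1505 CPM for Tyr and 11446 CPM for Dct. The few Mutant cells of sub-cluster 2, 23 in all, had 304 CPM of Mitf, and the 895 of sub-cluster 0 had 70.1 CPM.

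Where both libraries had at least 50 cells in a sub-cluster, Mc1r was called lower in each of the 5, and Mitf in 3 of the 5. In sub-cluster 4 Mitf had 265 and 196 CPM (-0.44, -0.60 to -0.28), well under the size rule, whereas Mc1r had 481 and 184 CPM (-1.38). Of the 10 members 1 was called lower there and 0 higher, beside 2.56% and 2.5% of 1600 compared genes. In the dividing sub-cluster 5 Mitf had 376 and 138 CPM (-1.45) and Mc1r 231 and 79.0 CPM (-1.54), both called, beside 2.64% of 1780 genes lower and 1.74% higher. In the shallow sub-cluster 1, led by haemoglobin genes and with medians of 1334 and 1412 UMIs per cell, Mc1r was called at -1.21, beside 2.38% of 1427 genes lower and 0.911% higher, and Mitf stood at -1.02 (-1.66 to -0.42), not called. In sub-cluster 6, led by keratinocyte genes, Mitf and Mc1r were called at -2.03 and -1.85, beside 3.83% of 1722 genes lower and 4.18% higher. In sub-cluster 7, led by T cell genes, they were called at -2.14 and -2.22, beside 2.2% of 1820 genes lower and 3.35% higher. The ratio of Mitf thus ran from -2.14 to -0.44 over these sub-clusters, and the difference between them was not tested.

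Sub-cluster 4 combined high Mc1r and Slc45a2 with low Tyrp1 and Pmel for its library. Its Control cells had the highest Mc1r of sub-clusters 0 to 5, 481 CPM, and the highest Slc45a2, 1605 CPM. They were low in Tyrp1, 3392 CPM, and in Pmel, 8427 CPM, against 6495 and 16138 CPM in sub-cluster 3. In Mutant cells Tyrp1 was 5652 CPM and Pmel 10214 CPM, against 7410 and 15534 CPM in sub-cluster 0. Low Tyrp1 and Pmel were not particular to sub-cluster 4. The shallow sub-cluster 1 had 2645 and 6293 CPM in Control and 4044 and 7566 CPM in Mutant. Among sub-clusters with at least 50 cells in both libraries, the gap of Dct between libraries was widest in sub-cluster 4, 9584 and 18864 CPM (0.98, 0.96 to 1.0). The cystine carrier gene Slc7a11, which is linked to the red and yellow pigment pheomelanin, had 243 and 320 CPM in sub-cluster 4 and 90.8 CPM in Control sub-cluster 3. Slc7a11 is among the leading genes of sub-cluster 4, so its higher level there is not independent of how those genes were picked.

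**Figure D3:**
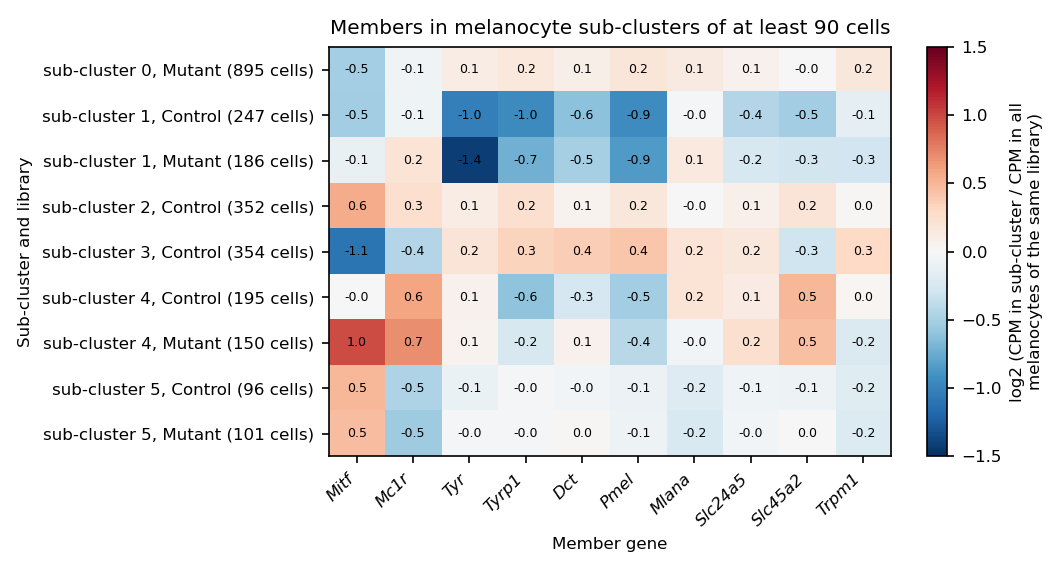
Each cell of the plot is the log2 ratio (colour and figure) of a member's CPM in a melanocyte sub-cluster over its CPM in all melanocytes of the same library, for sub-clusters of at least 90 cells. Mitf is the member that varies most among the Control rows with over 300 cells, from 125 CPM in sub-cluster 3 to 394 CPM in sub-cluster 2, and sub-cluster 4 of both libraries is high in Mc1r and low in Tyrp1 and Pmel for its library.

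Several smaller sub-clusters were led by genes of other cell types, such as keratins in sub-cluster 6 and T cell genes in sub-cluster 7. In Control melanocytes as a whole, the median over cells of the marker sum per 10000 UMIs was 0 for T cell or NK cell markers and 5.06 for interfollicular basal keratinocyte markers. In Mutant melanocytes these medians were 0 and 4.99. Fibroblast markers were higher, 11.4 and 13.6. Without these sub-clusters and the haemoglobin-led ones, Mitf stood at -1.48 and Mc1r at -1.49, so both differences were as large without them. The sub-clusters left out were 1 and 6 to 13, which were not a small part of the melanocytes. Sub-cluster 1 alone held 247 Control and 186 Mutant cells, 16.2% and 11.2% of the melanocytes. Red blood cell markers summed to 5706 CPM in Control and 2112 CPM in Mutant melanocytes.

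Dividing melanocytes kept the difference. After thinning, at least 2 UMIs of a division list were found in 10.9% of Control melanocytes (9.24 to 12.7) and 9.65% of Mutant melanocytes (8.20 to 11.3), and in 35.1% and 22.5% without thinning. Mitf was higher in dividing than in other cells, by log2 0.45 in Control and 0.49 in Mutant, and Mc1r was lower, by -0.45 and -0.46. The ratio of Mutant over Control was -1.39 for Mitf in dividing cells and -1.43 in the rest, and -1.49 for Mc1r in both. Both members were called in both states, and 0 others were. In dividing cells 2.29% of 1746 compared genes were lower and 1.72% higher, and in the rest 2.38% of 1636 were lower and 1.34% higher. The 8 downstream members were lower in dividing than in other cells of both libraries, from -0.10 for Tyrp1 in Control to -0.41 for Mlana in Mutant.

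Within a library Tyrp1, Dct and Pmel went together most from cell to cell, and Mitf had low correlations with them. The cells were chosen on a sum that includes these genes, so their correlations are not independent of the rule. Over the thinned cells of each library, Spearman's rho of the 45 member pairs ran from -0.13 to 0.66 in Control and from -0.03 to 0.52 in Mutant. The highest pair in both was Tyrp1 and Pmel. Dct and Pmel had 0.63 in Control and 0.44 in Mutant. Tyr, which is not in the rule, had 0.27 with Tyrp1, 0.28 with Dct and 0.27 with Pmel in Control. In Mutant these were 0.31, 0.31 and 0.29. Mitf and Tyr had 0.05 in both libraries, and Mc1r and Dct had -0.13 in Control and 0.01 in Mutant. These values describe cells that share a library, and in sparse counts such as those of Mitf a weak correlation is no finding.

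Outside melanocytes the members were found at a low level everywhere. They summed to 166 CPM in Control cells outside the rule, 0.316% of the melanocyte level, and to 341 CPM or 0.569% in Mutant cells. The log2 ratio was 1.04 (1.01 to 1.06). Melanocytes were also a larger share of cells in the Mutant library. Across 22 classes of at least 50 cells the level ran from 0.155% in inner root sheath-like cells to 0.868% in Schwann cell-like cells of the Control library. In Mutant it ran from 0.277% in hair cortex or cuticle-like cells to 1.71% in Schwann cell-like cells.

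Per cell, the classes were more alike than per UMI, more clearly in the Mutant library than in Control. Control classes held 0.875 to 2.86 member UMIs per cell with a median of 1.49, and Mutant classes 1.79 to 3.05 with a median of 2.61. The T cell or NK cell-like class held 1.17 and 1.79 member UMIs per cell at median depths of 2283 and 1955 UMIs. A Dct UMI was found in 23.8% of all Control cells and 47.1% of all Mutant cells outside the rule, at median depths of 5268 and 5433 UMIs. Droplets also take up free RNA from solution, and its part in these levels was not tested.

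**Figure D4:**
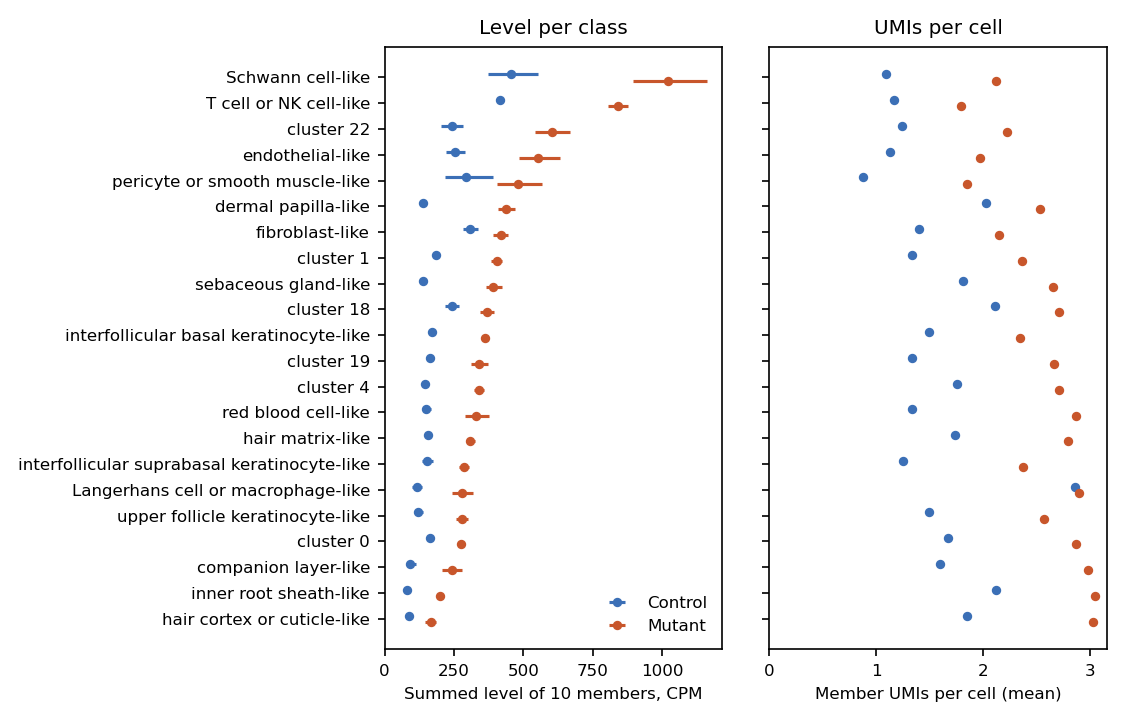
Left, summed level of the 10 members in CPM in each class of cells outside the melanocyte rule, with exact 95% intervals for counting error; right, mean member UMIs per cell, for the Control and Mutant libraries. All 22 classes have a higher level in the Mutant library, and they span 0.155% to 0.868% of the melanocyte level in Control and 0.277% to 1.71% in Mutant.

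The mix of members in these cells was set against the mix in melanocytes of the same library, since 1 source of free RNA keeps its genes in 1 ratio. Tyr, Tyrp1, Dct, Mlana, Slc45a2 and Trpm1 had medians over classes of 0.74 to 1.27 times the count at the melanocyte mix in Control and 0.96 to 1.25 in Mutant. Pmel stood below it, at 0.70 and 0.82, and Slc24a5 had 1.29 and 1.27. Mitf stood above, with medians of 5.51 and 8.09, and in 13 of the 22 Control classes and 14 of the 22 Mutant classes its lower bound was over 2. Mc1r had medians of 3.32 and 4.34, with the lower bound over 2 in 9 and 10 classes.

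Mitf outside melanocytes did not follow the drop seen inside them. Over all cells outside the rule it had 515 UMIs or 4.66 CPM in Control and 360 UMIs or 5.31 CPM in Mutant (log2 0.19, -0.01 to 0.39). The members together stood at 1.04 there. Mc1r was lower outside the rule too, at 4.10 and 3.19 CPM (-0.36, -0.60 to -0.12). Mitf was highest in cluster 22, led by Ccdc80, Lrrc15 and Igfbp2, at 32.5 CPM (20 UMIs) and 34.5 CPM (21 UMIs), which is 26.4 and 34.4 times the count at the melanocyte mix. Dermal papilla-like cells, the mesenchyme at the follicle base, had 8.40 and 17.0 CPM. The inner root sheath-like class, from the layer that moulds the hair, had 111 UMIs or 5.40 CPM in Control, 13.04 times the mix, and 41 UMIs or 10.0 CPM in Mutant. The T cell or NK cell-like class had 3.08 CPM in Control, 1.46 times the mix (0.95 to 2.14). Most of these values rest on few UMIs, and the part of free RNA in them was not tested.

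Dermal papilla-like cells held more of 2 further members. Slc24a5 had 300 UMIs there in Control, 40.01 CPM (35.6 to 44.8) and 4.38 times the melanocyte mix, and 36.6% of these cells held a UMI. In Mutant it had 83 UMIs, 44.0 CPM (35.1 to 54.6) and 2.12 times the mix, in 19.9% of cells at a lower median depth, 3136.5 against 7860 UMIs. Slc24a5 lies across Myef2 on the other strand, and the strand setting of the counting is not given. The part of Myef2 in these UMIs was not tested. Mc1r had 76 UMIs or 10.1 CPM in Control and 26 UMIs or 13.8 CPM in Mutant, 12.1 and 16.5 times the mix. Counts at the mix are scaled to the members' total in the class, so an excess of some members lowers the ratio of the others there, such as Tyr and Dct at 0.51 and 0.57 times the mix in Control.

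**Figure D5:**
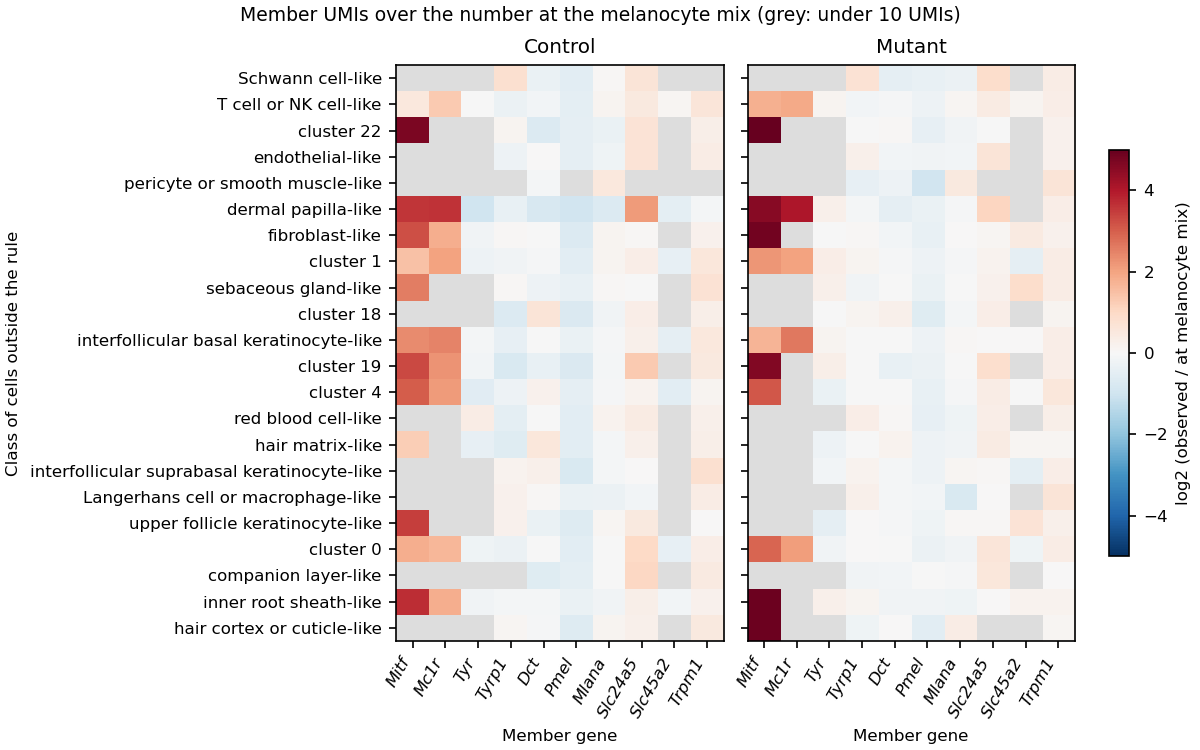
Observed UMIs of each member over the number at the melanocyte mix of the same library (log2, colour), by class of cells outside the rule; grey marks fewer than 10 UMIs. Mitf and Mc1r are high in most classes that could be read, Slc24a5 is high in Control dermal papilla-like cells at 4.38 times, and Pmel lies below the mix with medians of 0.70 and 0.82.

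The genes whose pattern was most like that of the members were sought over melanocytes and 22 classes in both libraries, 46 points that share 2 libraries. Of 1343 candidates the closest were Ptgds, a prostaglandin synthase gene (Pearson's r 0.99), Oca2, a melanosome transporter gene (0.96), and Syt4, a vesicle protein gene (0.95). Trim63 followed at 0.92, and then Atp6v0d2, Tspan10, Gpr143, Mcoln3, Sfrp4 and Glrb, down to 0.84. None of the 10 was called between libraries in melanocytes. Ptgds had 16936 and 17710 CPM there (0.06), and Oca2 had 410 and 665 CPM (0.70). The likeness rests on the contrast between melanocytes and other cells and carries no test.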

How the data were processed

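Single-cell 3′ RNA libraries of 2 groups were analysed, each a matrix of UMI counts. Per the file headers the deposited counts were made with Cell Ranger 3.0.2. The submitters' processing notes also list Seurat (3.0.0, 3.1.0) and mm10, which is GRCm38. Matrices held 16973 Control barcodes (140880809 UMIs) and 13411 Mutant barcodes (97817173 UMIs). Cells were kept from 500 genes upward and up to 15% mitochondrial UMIs, and Scrublet calls were removed (scanpy 1.11.5, 366 and 453 cells). The expected doublet rate was set by loading after the default had called almost no Control cell. Sums of UMIs over the cells of a class in a library were divided by their total. Intervals are exact Poisson, conditional or Clopper-Pearson (scipy 1.17.1). Clusters used 2000 variable genes without the members, 30 components, 15 neighbours and Leiden resolution 1, or 0.5 among melanocytes (leidenalg 0.10.2), with no batch integration. A cluster took the name of a cell type from its markers only where the best set led. Positions are GENCODE vM21 on GRCm38. Asip is listed under the symbol a. The size rule was tested on simulated counts.

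All 10 members are named. Each list names up to 6 called genes by size of ratio and then, if fewer than 4, those of highest level. Likeness names the 10 highest correlations. Members and lists were chosen with earlier results of these data known. Alternatives covered the melanocyte cutoff and genes, cell filters, doublets, depth, division, denominators (TMM in edgeR 4.0.16, median of ratios as in DESeq2 1.42.0) and level minimums. Groups were not tested, since each is 1 pooled sample, and the protein comparison of the enzymes was not run.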

Additional observations from a re-analysis of the deposited data

Results flagged for a closer look

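In 4 members the value outside the melanocyte rule and the value in melanocytes lay on opposite sides of 0 with both intervals clear of it, and in each case the difference was not tested. Tyr had a log2 ratio of Mutant over Control of 0.86 outside the rule and -0.17 in melanocytes. Mlana had 0.60 outside and -0.22 inside, Slc24a5 0.28 outside and -0.30 inside, and Slc45a2 0.60 outside and -0.55 inside. Mitf also had opposite signs, 0.19 and -1.42, with an interval that held 0 outside the rule (-0.01 to 0.39). The summed member level outside the rule was 1.04 higher on the log2 scale in the Mutant library, and melanocytes were 15.2% of Mutant and 11.04% of Control cells.

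Barcodes removed by the cell filters were not used for any level above, yet many held pigment transcripts at melanocyte strength. Of the 1956 removed Mutant barcodes 29.3% (27.3 to 31.4) passed the melanocyte rule, against 18.7% (17.3 to 20.2) of the 2817 removed Control barcodes. Those barcodes were shallow, with medians of 766 and 684 UMIs. Using every deposited barcode left Mitf and Mc1r as the only called members.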

How the results depend on the processing

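Members kept their direction in all 20 alternatives run on the ratios, and Mitf (-1.48 to -1.26) and Mc1r (-1.55 to -1.32) were called in each, with 0 other members called. Tyr came nearest to 0, from -0.23 to -0.01. Other scalings moved the median of all compared genes by 0.16 (TMM) and 0.14 (median of ratios), and member ratios shift by the same amounts. Called genes higher in Mutant numbered 21 and became 42 with TMM, 37 with median of ratios, 38 at a level minimum of 50 CPM and 75 at 20 CPM. Called genes lower numbered 35, and became 24 and 26 under those scalings and 85 and 171 at those minimums. The share of higher calls was 37.5%, and 63.6% and 58.7% under TMM and median of ratios.

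The melanocyte share (11.04% Control, 15.2% Mutant) was 15.5% and 23.5% at a cutoff of 10, 10.2% and 13.6% at 100, 7.87% and 11.5% in melanocyte-like clusters, 12.9% and 18.1% over all barcodes and 11.7% and 16.2% with doublets kept. It was 10.3% and 14.4% without Mlana in the rule, 14.3% in Mutant without Dct and 13.7% in Mutant under the strict filter. The member level outside the rule (0.316% and 0.569%) was 0.292% and 0.539% at a cutoff of 10, 0.372% and 0.667% at 100, 0.286% and 0.523% under the strict filter, 0.355% and 0.629% over all barcodes and 0.330% and 0.597% with doublets kept. The class median was 0.374% in Control and 0.706% in Mutant at a cutoff of 100, 0.570% in Mutant at 10, and 0.406% and 0.795% with melanocytes kept in their clusters. The cause of these moves was not tested. No direction reversed.

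No paired analysis was possible because each group was deposited as 1 pooled matrix with no samples to leave out. Leaving out sub-clusters led by other cell types' genes was chosen after seeing the data. Counting error was small for the members in melanocytes and large in the minor classes, where many Mitf and Mc1r values rest on under 50 UMIs. The protein identity of Tyr, Tyrp1 and Dct was not run.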

Other observations

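The neuronal tubulin gene Tubb3 lies beside Mc1r and was looked at after the values of Mc1r were seen. It had 513 UMIs or 25.8 CPM in Control melanocytes and 86 UMIs or 4.33 CPM in Mutant melanocytes. Both neighbours were lower in the Mutant library, and no cause was tested.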
